A study of Mus musculus with 4 samples.

Results

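A set of 9 genes of the red blood cell program were followed in the nuclei of mouse bone marrow progenitors, in RNA and in chromatin of the same nuclei. The genes were named beforehand as Hba-a1, Hbb-bt, Alas2, Car1, Car2, Slc4a1, Rhd, Ank1 and Kel, and each symbol matched 1 of the 32272 gene rows, so that all 9 members were found. Their chromatin was read from the 128 of 174339 peaks that lay within 50 kb of the interval the files give for a member's transcription start. The samples were Lin-cKit+ bone marrow cells of C57BL/6 wild type male mice, 8 weeks old, which carried silk ligatures on their molars for 14 days (Lig) or were left untreated (Ctrl), and the marrow of 5 mice was pooled into 1 sample per group. The sort was set to remove cells with TER119 and other lineage markers, and whether later TER119+ erythroid cells were left in was not tested.

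The labels name 4 libraries, the RNA and the ATAC library of 1 Ctrl and 1 Lig sample, with no replicates. The deposited matrix holds them as 1 table in which barcodes end in suffix 1 or 2. Which suffix holds the Ctrl and which the Lig nuclei is not stated, so they are named library 1 and library 2 here, and nothing that differs from one to the other is ascribed to ligature. After the filters of 200 or more genes and 1000 to 50000 peak counts, 5905 nuclei of library 1 and 7714 of library 2 remained, with median UMIs (unique molecular identifiers, the counted RNA molecules) of 1641 and 1517 and median peak counts of 19471 and 16284. Of the barcode sequences, 146 occurred in both libraries, 72 of them among the kept nuclei.

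Red blood cells are built in a fixed order. Committed progenitors switch on carbonic anhydrase and membrane genes under the transcription factors GATA1 and KLF1, and hemoglobin and the last enzymes of heme supply are made in bulk in later erythroblasts. Hba-a1 and Hbb-bt encode alpha and beta globin, and Alas2 the erythroid form of the first enzyme of heme synthesis. Car1 and Car2 encode carbonic anhydrases, which interconvert carbon dioxide and bicarbonate. Slc4a1 encodes band 3, the anion exchanger of the red cell membrane, Ank1 encodes ankyrin, which ties band 3 to the spectrin skeleton, and Rhd and Kel encode proteins of the Rh and Kell blood groups.

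The sequences below are those the chromatin results turn on. They are the stretches before the start of the 5 members with a RefSeq promoter entry (GRCm38.p6), cut where an annotated exon begins except at Kel, whose last few printed bases lie inside an annotated exon, and 300 bases at the centre of 3 peaks away from promoters that were far more open in erythroid nuclei. Capitals mark matches on either strand to the GATA letters (AGATAA or AGATAG, or either of them with T as the first letter) or to the KLF-type letters CCNCNCCC.
Kel promoter, chr6:41704326-41704575, minus strand: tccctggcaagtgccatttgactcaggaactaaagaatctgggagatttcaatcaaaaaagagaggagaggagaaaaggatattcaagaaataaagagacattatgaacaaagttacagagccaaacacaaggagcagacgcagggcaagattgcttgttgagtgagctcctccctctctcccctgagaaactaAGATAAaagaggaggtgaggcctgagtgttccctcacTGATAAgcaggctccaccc
Rhd promoter, chr4:134864286-134864535, plus strand: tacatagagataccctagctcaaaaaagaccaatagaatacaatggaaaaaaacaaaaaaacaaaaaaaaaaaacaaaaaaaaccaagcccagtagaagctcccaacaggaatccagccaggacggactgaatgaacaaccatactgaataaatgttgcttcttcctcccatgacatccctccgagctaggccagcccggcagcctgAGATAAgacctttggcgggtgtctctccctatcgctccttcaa
Alas2 promoter, chrX:150547167-150547374, plus strand: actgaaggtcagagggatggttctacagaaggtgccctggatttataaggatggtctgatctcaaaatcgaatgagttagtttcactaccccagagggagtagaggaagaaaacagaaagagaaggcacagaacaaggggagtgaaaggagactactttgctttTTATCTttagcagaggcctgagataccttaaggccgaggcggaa
Hbb-bt promoter, chr7:103813997-103814173, minus strand: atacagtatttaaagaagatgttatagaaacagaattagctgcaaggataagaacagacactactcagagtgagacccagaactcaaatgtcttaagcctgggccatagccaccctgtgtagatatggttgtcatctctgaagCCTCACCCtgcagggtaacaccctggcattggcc
Hba-a1 promoter, chr11:32283422-32283510, plus strand: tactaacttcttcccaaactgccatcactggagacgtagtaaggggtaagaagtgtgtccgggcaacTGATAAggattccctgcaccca
Alas2 intron peak, 2.46 kb after the start, chrX:150549686-150549985, plus strand: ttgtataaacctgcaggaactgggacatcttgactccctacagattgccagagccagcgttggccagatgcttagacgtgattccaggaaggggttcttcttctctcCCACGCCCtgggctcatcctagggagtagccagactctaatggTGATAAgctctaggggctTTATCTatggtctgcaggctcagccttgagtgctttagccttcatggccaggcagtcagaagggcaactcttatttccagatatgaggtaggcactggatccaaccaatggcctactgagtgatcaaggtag
Peak in an intron of Nprl3, centred at -37740 bases from the start of Hba-a1 (negative is upstream), chr11:32245622-32245921, plus strand: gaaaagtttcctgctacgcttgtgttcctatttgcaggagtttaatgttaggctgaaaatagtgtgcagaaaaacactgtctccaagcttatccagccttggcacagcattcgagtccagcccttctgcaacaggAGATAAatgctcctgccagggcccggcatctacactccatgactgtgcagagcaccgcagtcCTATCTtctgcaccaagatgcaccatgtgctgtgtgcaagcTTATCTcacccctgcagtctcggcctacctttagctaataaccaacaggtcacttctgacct
Peak centred at -45283 bases from the start of Hbb-bt, outside any gene, chr7:103859130-103859429, minus strand: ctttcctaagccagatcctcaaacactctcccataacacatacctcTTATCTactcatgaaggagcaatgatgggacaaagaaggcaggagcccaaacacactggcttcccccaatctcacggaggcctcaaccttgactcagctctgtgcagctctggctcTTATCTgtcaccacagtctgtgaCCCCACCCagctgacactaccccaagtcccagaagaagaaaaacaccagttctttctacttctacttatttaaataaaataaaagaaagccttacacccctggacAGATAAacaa

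Of these 5 promoters, searched over the 250 bases before the RefSeq start, 4 held GATA letters. Kel held them 56 and 19 bases before the start, Rhd 43, Alas2 86 and Hba-a1 183 bases before it, while Hbb-bt held no GATA match and 1 KLF-type match 107 bases before its start. Alas2 also held 4 KLF-type matches, some of them overlapping, that began between 42 and 26 bases before the start, in the stretch left out above because an annotated exon covers it. Over all 32851 promoters of this length, 26.5% held GATA letters, 45.9% KLF-type letters and 8.19% both. The centre of the Alas2 intron peak held 2 GATA and 1 KLF-type matches, the Nprl3 peak 3 GATA and 0 KLF-type matches, and the peak upstream of Hbb-bt 3 GATA and 1 KLF-type matches. Among the centres of 174282 peaks, 35.7% held GATA and 33.3% KLF-type letters, and 9.79% both. A match is a description of the letters, not a bound site. The alpha globin gene has a near copy, Hba-a2, and Hbb-bt has the neighbor Hbb-bs. The last 300 bases of their longest annotated transcripts were 89.6% and 86.2% identical, and the 250 bases before the start 97.6% and 70.9%. RNA and chromatin reads may thus be split between copies, and the values of Hba-a1 and Hbb-bt are uncertain to that extent.

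Nuclei were grouped into 17 clusters from RNA and chromatin together, with the members' RNA rows and their peaks within 50 kb left out, and 13 clusters met a marker rule for a name that used no member. The erythroid progenitor-like (EryP-like) cluster had 11 of 17 erythroid markers raised. It held 332 nuclei of library 1 (5.62%, exact 95% interval 5.05 to 6.24) and 320 of library 2 (4.15%, 3.71 to 4.62). Summed, the erythroid markers stood at 554 and 322 CPM in its 2 libraries, CPM being UMIs scaled to a group total of 1e+06 UMIs, and 1 of the 17 was at 0. In the nuclei outside both this cluster and the Sox6-led cluster described next, they stood at 133 and 96.4 CPM. Kit, the receptor used for the sort, was higher in EryP-like nuclei than in any other cluster, at 265 CPM with libraries summed. On RNA alone, 588 of the 652 EryP-like nuclei fell into a cluster of 926 that also held 248 basophil progenitor-like nuclei.

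A second cluster, with 75 nuclei of library 1 (1.27%) and 21 of library 2 (0.272%), turned out to carry open chromatin at most members. It is called the Sox6-led cluster after its leading gene, a transcription factor with known roles in erythroid maturation, and it kept no cell type name because only 1 erythroid marker was raised. Its erythroid markers summed to 211 and 203 CPM with 8 of 17 at 0. Its granulocyte-monocyte progenitor markers summed to 2354 and 2132 CPM against 1772 and 2699 CPM in the remaining nuclei. Its Kit level was 50.5 CPM with libraries summed, from 4 and 3 UMIs. Kit stood at 36.6 CPM (9.98 to 93.8) in library 1 and 102 CPM (20.9 to 297) in library 2. The remaining nuclei had 128 and 68.4 CPM, so lower Kit was seen in library 1 only. Its nuclei held a median of 1073 UMIs and 301 genes, fewer than the 1463 UMIs and 540 genes of EryP-like nuclei, and the part of other cells' RNA in its values was not tested. When nuclei were clustered on RNA alone, 61 of the 96 fell into an unnamed cluster of 1291 nuclei. Since library 1 gave 75 of the 96, its values rest mainly on that library.

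Below, "other nuclei" are all kept nuclei outside the EryP-like cluster, and "remaining nuclei" are those outside both the EryP-like and the Sox6-led cluster. RNA levels are CPM of all UMIs and peak levels CPM of all peak counts. All intervals are 95% intervals for counting error only. As there is 1 library per suffix and no replicate, no p-value was computed. A member was called higher when its CPM in EryP-like nuclei was at least 2-fold that of the other nuclei in both libraries, with at least 20 counts in each library. In sums over nuclei, fewer cells with a transcript and less RNA per cell cannot be told apart.

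RNA of 6 members was called higher in EryP-like nuclei: Hba-a1, Car1, Car2, Rhd, Ank1 and Kel. The Hba-a1 call rested on 3 EryP-like nuclei with a UMI in each library. Of these, 1 nucleus held 9 of the 11 UMIs of library 1 and 1 nucleus held 5 of the 7 of library 2. Hbb-bt, Alas2 and Slc4a1 had under 20 UMIs in each library and could not be called. Over all genes with enough UMIs, 461 of 10614 (4.34%) were called. Only Car1 and Car2 reached 20 UMIs outside EryP-like nuclei in both libraries, so Hba-a1, Rhd, Ank1 and Kel entered partly or wholly through the cluster in which they were high, and their count is a description. Hba-a1 and Rhd fell under 20 UMIs and lost the call when the Sox6-led cluster was left out of the other nuclei, and Rhd also lost it with limits on halved peak counts and without the nuclei of highest doublet score. With at least 500 genes per nucleus, Hba-a1, Rhd and Kel lost the call and 3 members kept it, whether or not nuclei were clustered anew. The comparison of clusters made from the same nuclei is likewise a description.

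Car1 RNA was concentrated in EryP-like nuclei. Its RNA stood at 259 CPM (220 to 303) in EryP-like nuclei of library 1 and 109 CPM (81.3 to 142) in library 2, against 6.601 and 3.984 CPM in the other nuclei. The ratios were 39.2 (29.1 to 53.3) and 27.2 (18.1 to 41.1). A Car1 UMI was seen in 26.8% of EryP-like nuclei of library 1 and 13.4% of library 2, and in 0.754% and 1.54% of pro-B-like nuclei, which should lack the gene and were deeper, with median UMIs of 1821 and 1458 against 1586 and 1316. After each nucleus was thinned to 1000 UMIs, leaving out 38 and 76 shallower EryP-like nuclei, the shares were 19.4% and 9.02%. EryP-like nuclei held 208 of the 320 Car1 UMIs, and 1 of 96 Sox6-led nuclei held 1 UMI.

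Car2 was high in the same nuclei but present in many others. EryP-like nuclei had 349 CPM (303 to 399) and 207 CPM (168 to 251), against 44.9 and 25.7 CPM in the other nuclei, which gave ratios of 7.77 and 8.04. With libraries summed, the order below EryP-like nuclei (285 CPM, 254 to 319) began with megakaryocyte progenitor-like nuclei at 127 CPM (97.9 to 161) and stem cell-like nuclei at 88.3 CPM (76.1 to 102). The interval of EryP-like nuclei lay above that of every other cluster, whereas those of the megakaryocyte-like and stem cell-like nuclei overlapped. The libraries did not share this order throughout, since stem cell-like nuclei had 137 CPM (114 to 163) in library 1 and 51.4 CPM (39.4 to 65.9) in library 2, where NK/T-like nuclei (77.4 CPM) and cluster 9 (76.2 CPM) stood above them with overlapping intervals. In library 2 the interval of the Sox6-led cluster, from 3 UMIs, also overlapped that of EryP-like nuclei. Unnamed cluster 9 (80.0 CPM), the Sox6-led cluster (79.3), NK/T-like (64.6), basophil progenitor-like (57.0), LMPP-like (51.7), unnamed cluster 7 (47.2) and pro-B-like nuclei (38.4) came next, each with an interval that overlapped its neighbor's. At the low end stood neutrophil progenitor-like (29.999 CPM), cDCP-like (22.9 CPM), B-like (18.8), pDCP-like (17.9), GMP-like (17.0), cluster 0 (13.2) and cMoP-like nuclei (9.43). Of the Car2 UMIs, 29.4% came from EryP-like nuclei against 65% for Car1.

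Kel and Ank1 had most of their RNA in the same cluster. Kel had 62 UMIs there in library 1 (103 CPM, 79.3 to 133) and 33 in library 2 (67.6 CPM, 46.5 to 94.9), and 12 and 6 UMIs in all other nuclei, so that EryP-like nuclei held 84.1% of its UMIs. The ratios were 83.6 (44.6 to 170) and 136 (56.2 to 396). The only other cluster with more than 3 Kel UMIs was the basophil progenitor-like one, with 7 UMIs at 15.95 CPM (6.41 to 32.9). Ank1 had 66 UMIs (110 CPM, 85.2 to 140) and 21 UMIs (43.0 CPM, 26.6 to 65.7) in EryP-like nuclei, with ratios of 59.3 (34.8 to 106) and 37.0 (18.0 to 78.7). For both genes no other cluster came near the EryP-like level in both libraries except the Sox6-led cluster for Ank1, where 4 and 2 UMIs gave 36.6 and 67.7 CPM. Pro-B-like nuclei had 0 Kel UMIs in 796 and 390 nuclei.

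Rhd, band 3 and the globins had their highest RNA levels in the Sox6-led cluster. Rhd stood at 202 CPM (134 to 292) there with libraries summed, against 12.0 CPM (6.36 to 20.4) in EryP-like and 1.57 CPM (1.09 to 2.20) in the remaining nuclei. Its 28 UMIs were spread over 24 of the 96 nuclei, 22 of them in library 1, while 13 EryP-like nuclei held 1 UMI each. Slc4a1 had 7 UMIs in the Sox6-led cluster (50.5 CPM, 20.3 to 104), 8 in EryP-like nuclei (7.36 CPM, 3.18 to 14.5) and 7 in the remaining 12871 nuclei (0.324 CPM, 0.130 to 0.668). The interval of the Sox6-led cluster lay above that of EryP-like nuclei for both genes.

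Globin UMIs were few and came from a handful of nuclei. Hba-a1 had 16 UMIs in 6 Sox6-led nuclei (115 CPM, 65.9 to 187). Of these, 1 nucleus held 6 of the 10 of library 1 and 1 nucleus 5 of the 6 of library 2. It had 18 UMIs in 6 EryP-like nuclei (16.6 CPM, 9.81 to 26.2), of which a single nucleus held 9. These Hba-a1 intervals treat the UMIs of 1 nucleus as separate counts. In the remaining nuclei 34 nuclei held 35 UMIs (1.62 CPM, 1.13 to 2.25), close to 1 each. Hbb-bt had 5 UMIs in each of the 2 clusters, 36.0 CPM (11.7 to 84.1) and 4.60 CPM (1.49 to 10.7), and 16 in the remaining nuclei (0.741 CPM). Of the 6 EryP-like nuclei with Hba-a1, 4 also held a UMI of another globin gene, against 1 of 34 among the remaining nuclei. At these counts the presence of globin RNA outside the 2 clusters was not separable from free RNA, and its part was not tested.

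Alas2 RNA was not detected in either cluster. It had 0 UMIs in EryP-like nuclei, which allows up to 2.76 CPM (3 counts), and 0 in the Sox6-led cluster, which allows up to 21.6 CPM. All kept nuclei together held 2 Alas2 UMIs.

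**Figure D1:**
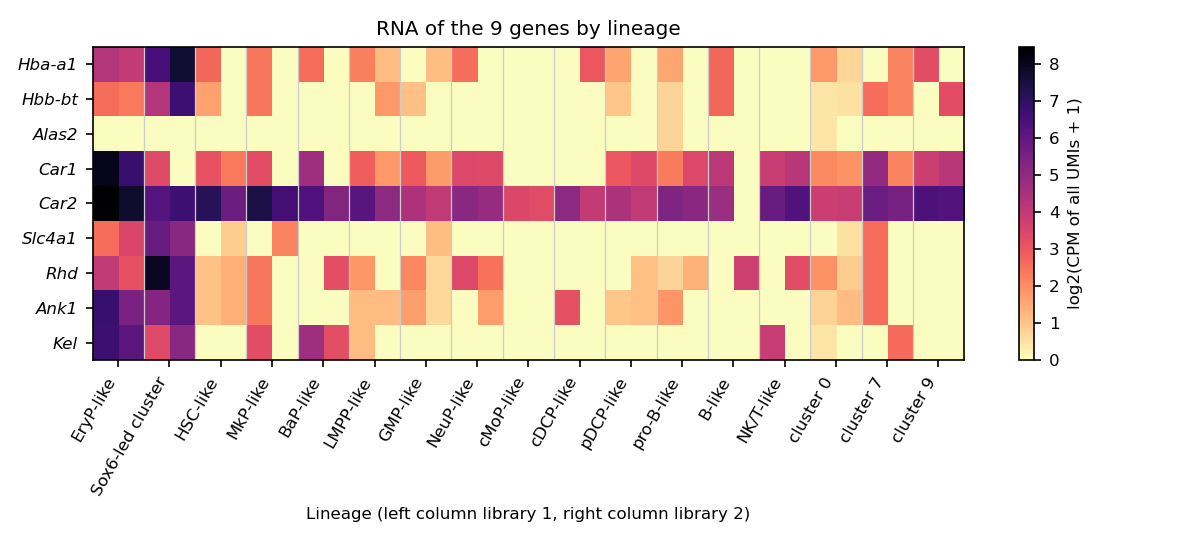
RNA of the 9 genes by cluster, as the color of log2(CPM of all UMIs + 1), with the left column of each pair library 1 and the right column library 2. Car1 and Kel are darkest in the EryP-like cluster in both libraries, Ank1 in library 1, Car2 is present in nearly all clusters, Rhd, Slc4a1 and the globins are darkest in the Sox6-led cluster, and the Alas2 row is empty but for 2 UMIs.

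The libraries differed in the RNA level of several members within EryP-like nuclei. Car1, Car2 and Ank1 were lower in library 2 with intervals that did not overlap, at 109 against 259, 207 against 349 and 43.0 against 110 CPM, and Kel stood at 67.6 against 103 CPM with overlapping intervals. The 17 erythroid markers moved the same way, from 554 to 322 CPM. Among members with few UMIs, Hba-a1 stood at 14.3 CPM in library 2 against 18.4 CPM in library 1, Rhd at 8.19 against 15.0 and Hbb-bt at 4.10 against 5.01. Slc4a1 was higher in library 2, at 10.2 against 5.01 CPM from 5 and 3 UMIs. Genes at the ribosomal RNA locus took 52.4% of UMIs in EryP-like nuclei of library 2 and 40.7% in library 1, and without them Car1 stood at 228 and 437, Car2 at 435 and 589, Ank1 at 90.3 and 186 and Kel at 142 and 175 CPM in the same order. The part of this locus, and of the depth of the nuclei, was not tested further. The Car1 peak, in contrast, had 18.6 CPM in library 2 and 16.3 CPM in library 1.

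Chromatin was compared first by sums. Peaks within 50 kb, added per gene, were called higher in EryP-like nuclei for 3 of 9 members, Hbb-bt, Car1 and Kel, against 259 of 28027 genes (0.924%). Peaks within 1 kb of the start interval were called for 3 of 8 members, Car1, Rhd and Kel, against 311 of 20736 genes (1.5%), and Hba-a1 had no peak there. With clusters made from ATAC alone or at resolution 0.4 the promoter count was 6, with Hbb-bt, Alas2 and Slc4a1 added. The start interval of Ank1 spans its alternative starts, so 11 peaks entered its promoter sum. The median ratio of the 50 kb sums was 1.71 and 1.82 over the 9 members in the 2 libraries and 1.04 in each over all genes, and that of promoter sums was 1.67 and 3.03 over 8 members and 1.09 and 1.10 over all genes. Of the 461 genes with RNA called, 16 were also called by their 50 kb sum, and of the 448 with enough promoter counts, 26 were called by their promoter. Car1 and Kel were called in all 3 measures.

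Single peaks were compared next. Of the 128 peaks, 28 (21.9%) were at least 2-fold higher in EryP-like nuclei in both libraries, against 8852 of 174258 peaks (5.08%). In the Sox6-led cluster, 26 of the 128 (20.3%) were at least 10-fold above the remaining nuclei with libraries summed, against 1576 of 174300 peaks (0.904%). The Sox6-led cluster was singled out for its open chromatin at the members, so its count describes that choice and supports nothing. It was also higher at some peaks open alike in the other groups. At 48392 bases from the Slc4a1 start, 54.2% of its nuclei had a count, against 25.9% of EryP-like and 26.3% of remaining nuclei. At -15883 bases from the Hba-a1 start the shares were 28.1%, 23.9% and 24.2%, and at 40983 bases from the Alas2 start 11.5%, 11.5% and 11.4%. Its levels below are not adjusted for such a difference, whose part was not tested. The peaks of 1 gene share a locus and are not independent. Each member had at least 1 peak called for EryP-like nuclei, from 1 of 1 at Car1 and 4 of 6 at Kel to 2 of 26 at Ank1 and 2 of 18 at Slc4a1.

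**Figure D2:**
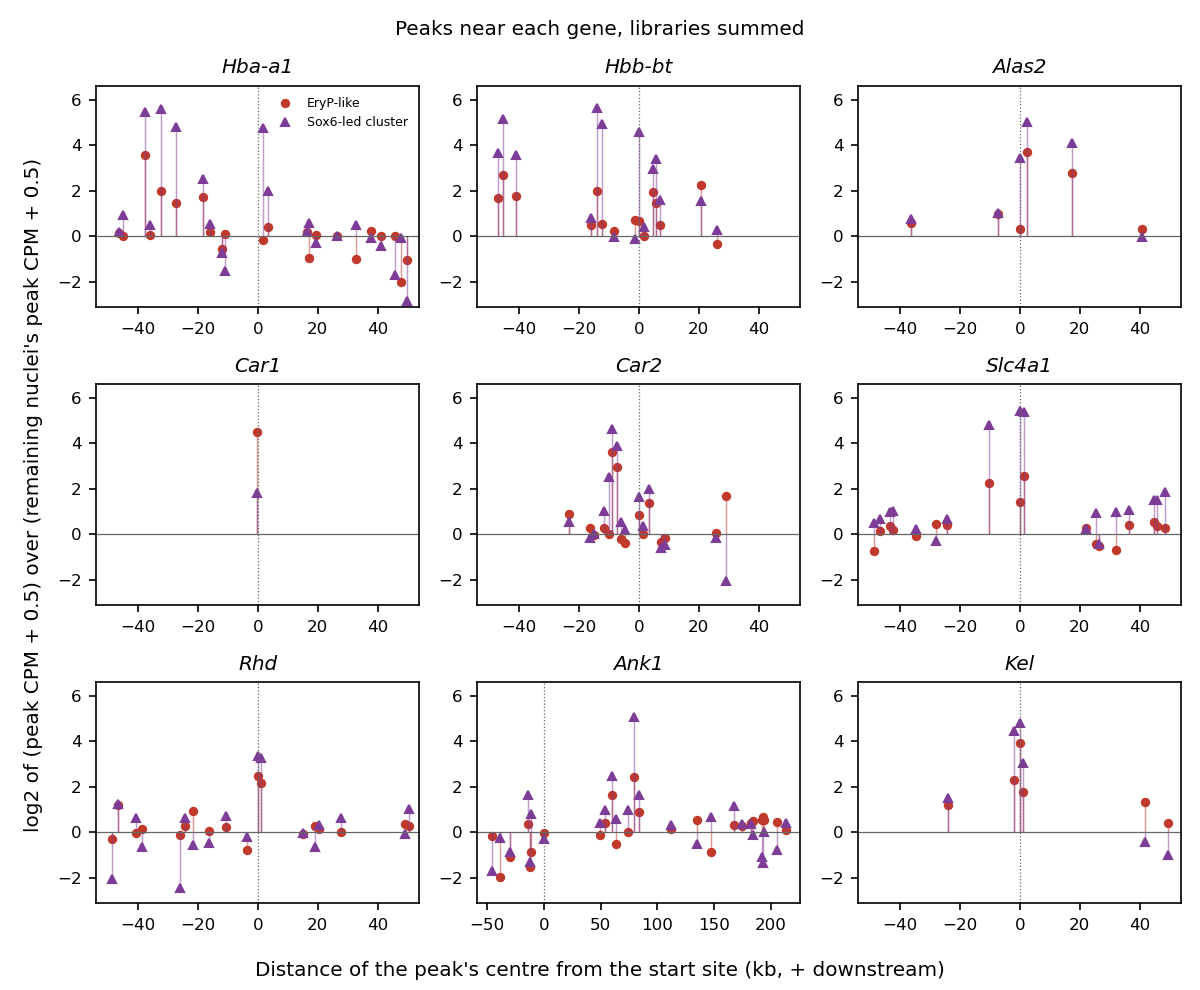
Each of the 128 peaks by the distance of its centre from the gene's start (kb, positive downstream), as log2 of the peak CPM + 0.5 over the remaining nuclei's peak CPM + 0.5, libraries summed, in EryP-like nuclei (red circles) and the Sox6-led cluster (purple triangles). At most open peaks of the globin, Alas2, Slc4a1 and Ank1 loci the triangles stand above the circles, except at the peak 20878 bases downstream of the Hbb-bt start, at Car1 the circle stands above the triangle, and most peaks lie near 0.

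The Car1 gene (chr3:14766216-14808368, minus strand) had a single peak in its window, at chr3:14808045-14808920 over its first exon. It held 93 counts in EryP-like nuclei of library 1 and 79 in library 2, 16.3 and 18.6 CPM, against 0.329 and 0.297 CPM in the other nuclei. The ratios of 49.6 (28.7 to 92.5) and 62.6 (36.5 to 121) stood beside 39.2 and 27.2 for its RNA. In the Sox6-led cluster 2 of 96 nuclei had a count there, 2.27 CPM against 17.3 CPM in EryP-like nuclei, a ratio of 0.132 (0.0157 to 0.490). At Car1, RNA and the start-site peak thus marked the same cluster and were both low in the Sox6-led nuclei.

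Car2 (chr3:14886273-14900770, plus strand) was open at its promoter in all progenitors. The promoter peak had 47.6 and 43.3 CPM in EryP-like nuclei against 26.6 and 24.6 CPM in the other nuclei, ratios of 1.79 (1.49 to 2.14) and 1.76 (1.41 to 2.17), while the RNA ratios were 7.77 and 8.04. With libraries summed the Sox6-led cluster had 79.6 CPM (62.1 to 101) there, above the 45.8 CPM (40.1 to 52.2) of EryP-like nuclei, although its Car2 RNA stood at 79.3 against 285 CPM. Its peak level was 91.0 CPM in library 1 and 26.0 CPM, from 8 counts, in library 2. Distal peaks outside any gene were more restricted. The peak at -8791 bases from the start (chr3:14877236-14878039) had ratios of 9.23 (6.69 to 12.8) and 21.3 (14.5 to 32.4), and the peak at -7324 bases 7.42 and 11.2. In library 1 the Sox6-led cluster had 52.4 CPM at the first of these, above the 20.2 CPM of EryP-like nuclei, and in library 2 it had 0 counts there. The Sox6-led level of the first peak therefore rests on library 1.

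Kel (chr6:41686330-41704339, minus strand) was open at its start in both clusters. Its promoter peak (chr6:41703917-41704799), which holds both GATA matches printed above, had 13.2 and 14.4 CPM in EryP-like nuclei and 0.817 and 0.410 CPM in the other nuclei, ratios of 16.1 (10.3 to 25.6) and 35.1 (19.3 to 59.5). The Sox6-led cluster had 27.6 CPM in library 1 and 12.99 CPM, from 4 counts, in library 2. With libraries summed it stood above EryP-like nuclei by a ratio of 1.83 (1.08 to 2.997), which rests on library 1. Kel RNA in that cluster was 2 UMIs, 14.4 CPM (1.75 to 52.1), below the 87.4 CPM (70.7 to 107) of EryP-like nuclei. A peak at -2097 bases was likewise open, at 3.92 CPM in EryP-like nuclei, 19.3 CPM in the Sox6-led cluster and 0.3996 CPM in the remaining nuclei. With libraries summed, the start-site peak was thus higher in the Sox6-led cluster and the RNA higher in EryP-like nuclei. As given above, that cluster was also higher at some peaks open alike in the other groups, so the peak difference is not shown to be particular to Kel.

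Rhd (chr4:134864536-134896172, plus strand) was open at its start in EryP-like nuclei, at 11.8 and 10.1 CPM against 1.47 and 1.92 CPM in the other nuclei, ratios of 8.02 (5.32 to 12.4) and 5.27 (3.25 to 8.52). The Sox6-led cluster had 23.4 CPM in library 1 and 6.50 CPM in library 2, the latter from 2 counts. With libraries summed its peak level was 1.85 times (1.02 to 3.20) that of EryP-like nuclei, whereas its RNA level of 202 CPM stood against 12.0. The RNA of Rhd therefore differed more between the clusters than its start-site peak did.

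Ank1 (chr8:22974844-23150497, plus strand) has several annotated starts, and they behaved differently. The peak at the first start had 8.25 CPM in EryP-like, 6.82 CPM in Sox6-led and 8.38 CPM in the remaining nuclei, and the intervals of the ratios to the remaining nuclei, 0.701 to 1.34 and 0.298 to 1.78, included 1. The peak at a start 60394 bases downstream (chr8:23034773-23035704) had 16.3 and 20.3 CPM in EryP-like nuclei against 5.49 and 5.76 CPM in the other nuclei, ratios of 2.97 (2.11 to 4.02) and 3.52 (2.50 to 4.84). An intronic peak 79289 bases downstream (chr8:23053708-23054559) was more selective, with ratios of 4.50 (2.73 to 7.13) and 7.27 (3.95 to 12.8). In the Sox6-led cluster this intronic peak reached 51.2 CPM, 49.96-fold (34.8 to 71.2) above the remaining nuclei. The UMIs do not show which start the Ank1 RNA came from.

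Slc4a1 (chr11:102348824-102366203, minus strand) was weakly open in EryP-like and widely open in Sox6-led nuclei. The start peak (chr11:102364821-102365690) had 4.32 CPM in EryP-like nuclei, 77.9 CPM in the Sox6-led cluster and 1.32 CPM in the remaining nuclei with libraries summed. The ratio of EryP-like to remaining nuclei was 3.27 (2.03 to 5.23), and that of the Sox6-led cluster 58.9 (43.2 to 78.0). Peaks at 1456 and -10209 bases from the start had 76.2 and 84.7 CPM in the Sox6-led cluster against 10.4 and 14.0 CPM in EryP-like nuclei. The Sox6-led level of the start peak was 84.1 CPM in library 1 and 48.7 CPM in library 2.

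Alas2 (chrX:150547375-150570638, plus strand) was open without detected RNA. Its intron peak, 2460 bases after the start (chrX:150549381-150550290) and also within the annotated extent of Apex2, had 11.8 and 8.01 CPM in EryP-like nuclei against 0.666 and 0.362 CPM in the other nuclei, ratios of 17.6 (10.8 to 28.8) and 22.2 (11.3 to 44.7). A count there was seen in 50 of 652 EryP-like nuclei (7.67%), in 18 of 96 Sox6-led nuclei (18.8%) and in 38 of 12871 remaining nuclei (0.295%). The promoter peak, in contrast, had 0.402 CPM in EryP-like and 0.225 CPM in the remaining nuclei, a ratio of 1.78 (0.209 to 7.27), and 7.39 CPM in the Sox6-led cluster, 32.8-fold (10.4 to 76.7) above the remaining nuclei. The second internal peak, 17526 bases after the start, was 17.0-fold (9.47 to 29.0) above the remaining nuclei in EryP-like and 45.2-fold (22.3 to 93.5) in Sox6-led nuclei. EryP-like nuclei were thus open inside the gene while the promoter was not detectably so, and both were open in the Sox6-led cluster.

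At the alpha globin locus the open peaks lay upstream of Hba-a1 (chr11:32283511-32284465, plus strand), inside the neighboring gene Nprl3, whose introns are known to hold the remote enhancers of alpha globin. The peak at -37740 bases had 14.7 and 12.96 CPM in EryP-like nuclei against 1.69 and 0.530 CPM in the other nuclei, ratios of 8.73 (5.92 to 12.7) and 24.4 (14.5 to 42.5). With libraries summed the Sox6-led cluster had 51.7 CPM there, 3.70 times (2.50 to 5.47) the EryP-like level. The peaks at -32479 and -27171 bases had 4.32 and 2.71 CPM in EryP-like nuclei and 58.0 and 32.4 CPM in the Sox6-led cluster, against 0.706 and 0.667 CPM in the remaining nuclei. The peak nearest the start, 1816 bases after it, was open in the Sox6-led cluster alone among these groups, at 36.4 CPM against 0.704 CPM in EryP-like and 0.854 CPM in the remaining nuclei. In EryP-like nuclei the most distal of these peaks was open while the peak next to the gene stayed at the level of the remaining nuclei.

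At the beta globin locus, open peaks lay on both sides of Hbb-bt. Of the 15 peaks within 50 kb of Hbb-bt (chr7:103812524-103813996, minus strand), the one at -45283 bases, on the side of the locus control region, had ratios of 5.51 (3.10 to 9.49) and 10.3 (5.39 to 19.3) in EryP-like nuclei, at 6.32 and 7.07 CPM. The peak at the start of Hbb-bt had 1.81 CPM in EryP-like nuclei and 0.952 CPM in the remaining nuclei, a ratio of 1.90 (0.847 to 3.74), and 34.7 CPM in the Sox6-led cluster. The peak at the start of Hbb-bs, at -14002 bases, had 3.92, 0.621 and 55.2 CPM in the same groups, so that it was also raised in EryP-like nuclei, by 6.32 (3.74 to 10.7). Downstream of Hbb-bt, the peak at 4764 bases had 6.64 CPM in EryP-like and 1.37 CPM in the remaining nuclei, and the peak at 20878 bases, at the promoter of the olfactory receptor gene Olfr67, had 13.3 and 2.38 CPM. At the latter the Sox6-led cluster had 7.96 CPM, 0.5998 times (0.232 to 1.31) the EryP-like level. In library 2 the Sox6-led cluster had only 2 counts at each of these starts, so their height there rests on library 1, while the distal peak had 43.4 and 19.5 CPM in the 2 libraries.

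**Figure D3:**
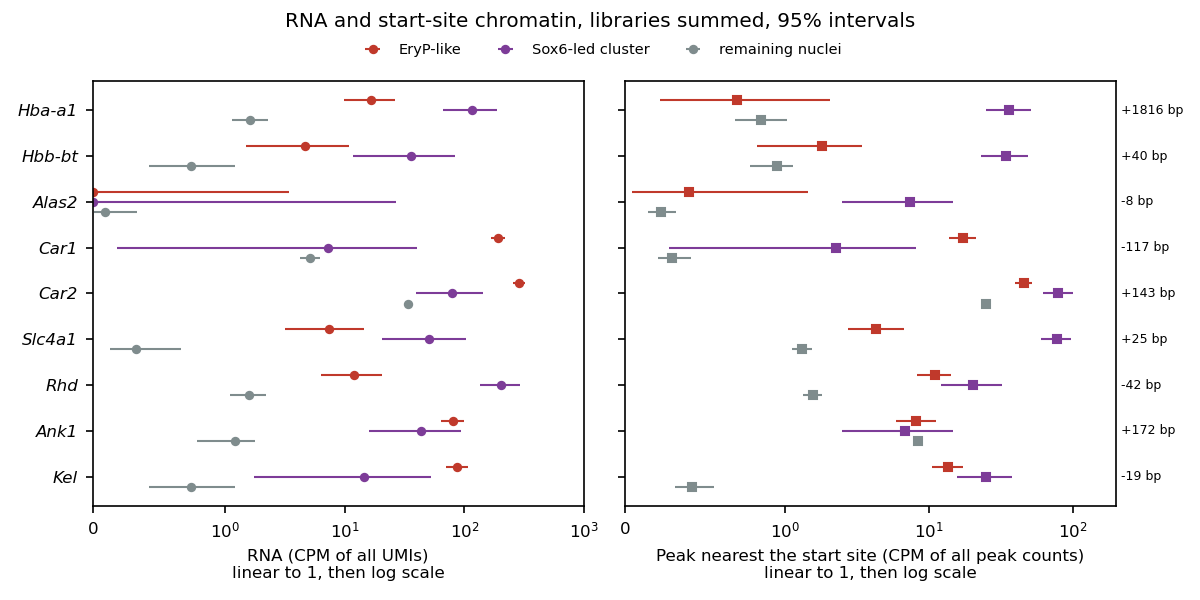
RNA (left, CPM of all UMIs) and the peak nearest the start (right, CPM of all peak counts, distance at the right edge) for each gene in EryP-like, Sox6-led and remaining nuclei, libraries summed, with 95% counting intervals on axes that are linear to 1 and logarithmic above. Car1 is high in EryP-like nuclei on both sides, Kel is high in EryP-like nuclei on the left and in both clusters on the right, and Alas2 has a peak but no RNA in the Sox6-led cluster.

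Across clusters, RNA and chromatin levels were compared per gene over the 16 clusters other than the Sox6-led one, as a description in which points share libraries and depth. For Car2 the rank correlation (Spearman's rho) between RNA and the 50 kb sum was 0.721 in library 1 and 0.821 in library 2, and for Kel 0.679 and 0.561, the latter with a Kel UMI in 3 of the 16 clusters. For Ank1 it was 0.667 and 0.337, for Hbb-bt 0.559 and 0.175, for Slc4a1 0.0767 and 0.583 and for Rhd 0.169 and 0.186. For Alas2 it was -0.297 in library 1, with a UMI in 2 clusters, and could not be had in library 2 without UMIs. For Car1 it was 0.132 and 0.358, although the EryP-like cluster was highest in both measures. For Hba-a1 it was -0.0896 and 0.431.

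Within EryP-like nuclei, the leading peak, the one chosen for the highest EryP-like ratio, was also compared between nuclei with and without a UMI of the gene. At Car2 the peak at -8791 bases had 32.4 CPM (22.4 to 44.3) in the 113 nuclei of library 1 with a Car2 UMI and 12.2 CPM (7.54 to 18.6) in the 219 without, and 27.6 CPM (14.7 to 47.2) against 19.7 CPM (13.3 to 27.3) in library 2. At Ank1 the intronic peak had 19.9 CPM (9.55 to 36.6) against 5.54 CPM (2.95 to 9.47) in library 1 and 16.1 CPM (1.56 to 46.4) against 6.86 CPM (3.89 to 11.9) in library 2. At Car1 the values were 22.0 against 14.0 CPM and 28.3 against 16.9 CPM, and at Kel 8.32 against 14.1 CPM and 24.2 against 13.3 CPM. Among these 4 genes the intervals were apart in library 1 at Car2 and Ank1 and overlapped elsewhere, and at Kel the direction was not shared by the libraries. At Rhd the 9 nuclei of library 1 with a UMI had 46.0 CPM (18.4 to 109) against 10.3 CPM (6.82 to 14.8), while the 4 of library 2 had 0 counts. At Hbb-bt 2 nuclei of library 1 with a UMI had 107 CPM (12.97 to 387) from 4 counts, against 5.65 CPM (3.23 to 9.18), and 2 of library 2 had 1 count. At Slc4a1 2 nuclei of library 1 with a UMI had 80.3 CPM (12.97 to 387) from 3 counts, against 9.01 CPM (5.999 to 13.5), and 4 of library 2 had 0 counts. At the leading peak of Hba-a1, EryP-like nuclei without an Hba-a1 UMI had 14.8 CPM in library 1 and 13.03 CPM in library 2. The 6 EryP-like nuclei with an Hba-a1 UMI had 0 counts there, which allows up to 187 and 319 CPM and decides nothing. Over all peaks within 50 kb they had 305 CPM (112 to 663) against 143 CPM (129 to 157) in library 1 and 476 CPM (191 to 1130) against 144 CPM (128 to 161) in library 2, from 12 and 11 counts. Nuclei with a UMI of Car1, Car2, Slc4a1, Rhd, Ank1 or Kel were also deeper in both libraries, with median UMIs of 1954 against 1469 for Car2 in library 1. In library 2, nuclei with an Hba-a1 or Hbb-bt UMI were shallower, at 1261 against 1318 and 1189 against 1316. Those with an Hba-a1 UMI also had lower median peak counts, 8751 against 16892 in library 1 and 9518 against 11964 in library 2. The part of depth was not tested.

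EryP-like nuclei were further ordered by a chromatin score, the percent of a nucleus's peak counts that fell in 3279 peaks at least 4-fold higher in EryP-like nuclei in both libraries and not within 50 kb of a member. From the lowest to the highest tertile, Car1 RNA stood at 79.4, 230 and 434 CPM in library 1 and at 43.5, 123 and 155 CPM in library 2. The Car1 peak stood at 2.31, 16.7 and 27.7 CPM and at 4.72, 18.1 and 31.8 CPM. RNA and the peak of Car1 were thus both highest in the highest tertile, and the intervals of the lowest and highest tertiles did not overlap in either library.

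Car2 RNA, from the lowest to the highest tertile, stood at 138, 326 and 546 CPM in library 1 and at 143, 144 and 315 CPM in library 2. In the same order, Ank1 RNA stood at 15.9, 53.4 and 237 CPM and at 31.1, 13.7 and 77.3 CPM. Kel RNA stood at 21.2, 85.5 and 188 CPM and at 43.5, 47.9 and 105 CPM. In library 2 the middle tertile thus stood near the lowest for Car2 and Kel and below it for Ank1. The intervals of the outer tertiles did not overlap in library 1 for any of the 3 genes, nor in library 2 for Car2, while they overlapped in library 2 for Ank1 and Kel. Hba-a1 had 10 of its 11 UMIs of library 1 and 5 of its 7 of library 2 in the highest tertile, of which 1 nucleus of library 1 held 9 and 1 nucleus of library 2 held 5, and all 9 Rhd UMIs of library 1 were there, whereas the 4 of library 2 fell as 1, 1 and 2 over the tertiles. The highest tertile was also deeper, with median UMIs of 1947 against 1486 in library 1 and 1663 against 1202 in library 2, and the part of depth in these levels was not tested.

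**Figure D4:**
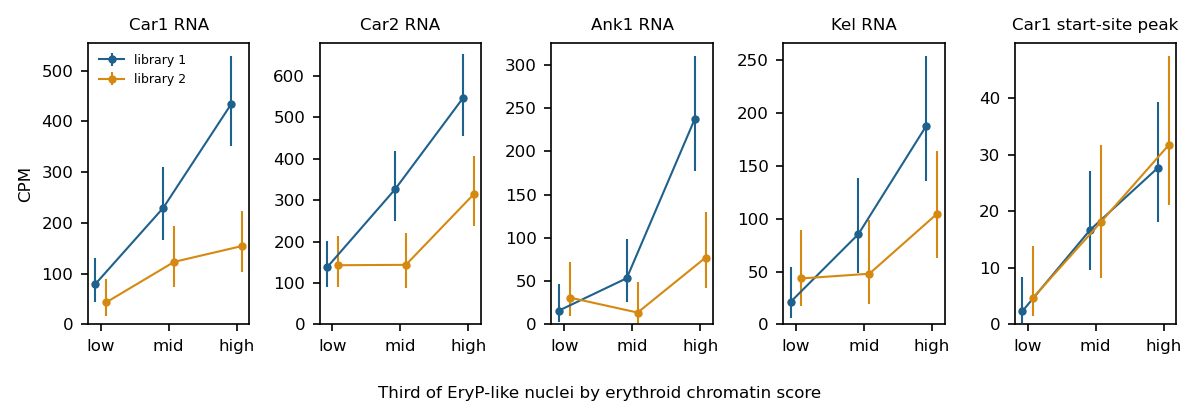
RNA of Car1, Car2, Ank1 and Kel and the Car1 start-site peak (CPM, linear axes from 0) in tertiles of EryP-like nuclei by erythroid chromatin score, library 1 in blue and library 2 in orange, with 95% counting intervals. In each panel the highest tertile has the highest value in both libraries, and the Car1 peak has nearly the same values in both.

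Other genes of the same pathways were taken from lists. Unlike the members, they were not kept out of the clustering or of the markers, so their calls describe the cluster and test nothing. Over all genes with enough UMIs, 461 of 10614 (4.34%) were called higher. Of 8 heme synthesis genes tested, 2 were called higher in EryP-like nuclei, Cpox (ratios 3.88 and 3.64) and Alad (2.78 and 2.55), and Alas1, the housekeeping counterpart of Alas2, was lower at 0.380 and 0.431. Of 8 iron and heme transport genes, 4 were higher: Tspo2 (64.7 and 14.1), Steap3 (4.19 and 5.36), Slc11a2 (4.73 and 3.59) and Abcb10 (3.38 and 2.01). Among membrane skeleton genes, Sptb, which encodes a beta spectrin (10.5 and 14.8), and the adducin Add1 (2.22 and 2.37) were higher. Of 8 blood group and membrane genes 3 were higher, namely Rhag, the partner of Rhd in the Rh complex (45.6 and 18.8), Aqp1 (39.3 and 23.1) and Xk, which carries the Kell protein on the cell surface (2.74 and 4.11). Of 7 regulators, 5 were higher, among them Gata1 (17.1 and 12.3) and Gfi1b (16.2 and 9.60). None of the 4 other carbonic anhydrase genes listed, Car3, Car13, Car8 and Car4, had enough UMIs. The other globin gene with enough UMIs, Hba-a2, stood at 13.3 and 12.3 CPM in EryP-like and 82.4 and 169 CPM in Sox6-led nuclei, close to Hba-a1.

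In the Sox6-led cluster of library 1, Rhag stood at 18.3 CPM and Aqp1 at 27.5 CPM, from 2 and 3 UMIs, beside 51.7 and 85.1 CPM in EryP-like nuclei, with intervals that overlapped for both genes. In library 2, Rhag stood at 33.8 CPM from 1 UMI beside 38.9 CPM, and Aqp1 had 0 UMIs beside 30.7 CPM. In the remaining nuclei, Rhag stood at 0.939 and 1.997 CPM and Aqp1 at 1.88 and 1.33 CPM in libraries 1 and 2. For both genes the interval of the Sox6-led cluster lay above that of the remaining nuclei in library 1 and overlapped it in library 2. Gata1 had 0 UMIs in the Sox6-led cluster in either library. The intervals of these zeros reach 33.8 and 124.8 CPM, above the 30.04 and 16.4 CPM of EryP-like nuclei, so no difference is shown for Gata1. Other regulators, named after their values were seen, had more UMIs. In library 1, Ldb1 had 0 UMIs in the Sox6-led cluster beside 125 CPM from 75 UMIs in EryP-like nuclei. Zfpm1 had 1 UMI, 9.16 CPM, beside 144 CPM from 86 UMIs. Nfe2 went the other way, at 45.8 CPM from 5 UMIs beside 33.4 CPM. In library 2 all 3 had 0 UMIs in the Sox6-led cluster. The members' closest companions over 16 clusters and 2 libraries, by Pearson's r of log2(CPM + 1), were Myo1d for Car1 (0.772), Tgfbr3 for Car2 (0.822), Spire1 for Ank1 (0.758) and Gna14 for Kel (0.871).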

How the data were processed

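Nuclei of Lin-cKit+ bone marrow cells were assayed by multiome sequencing. The deposited values were raw counts per barcode, UMIs for gene rows and transposase counts for peak rows, which the authors made with Cell Ranger ARC 2.0.0 on GRCm38 (mm10). Per the submitters' processing notes Seurat 4.0.3 and Signac 1.3.0 followed. Of nonzero peak entries 82.7% were even, so Poisson intervals for peaks were computed on pairs of counts. Nuclei were clustered with Seurat 5.3.0 in R 4.3.3 on 2000 variable genes, 30 principal components and components 2 to 30 of latent semantic indexing, joined by weighted nearest neighbors at resolution 0.8 after correction between libraries, without the members' rows and peaks. Clusters were named from marker lists of 15 classes. Scrublet (scanpy 1.11.5) called 3 doublets and had not worked, so removing the top 8% of scores was an alternative. Shares carry Clopper-Pearson intervals.

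Distances count from the 5′ end of the start interval in the files, with 1-based coordinates. The members, lists, markers and alternatives were chosen with earlier results of these data known. All members are named, with the genes of largest ratio per list, the gene closest in pattern, and per member the promoter peak and the peak of largest ratio. Other peaks named were chosen after their values were seen. No deposited column named another sample. Results for a withheld item, and the count of the list it belongs to, are not reported here. Precision is set by the UMIs and counts given beside each value.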

Additional observations from a re-analysis of the deposited data

Results flagged for a closer look

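Rhd RNA appeared in barcodes that the filters removed. The 2080 barcodes of library 1 with under 200 genes held 44 Rhd UMIs, 55.5 CPM, above the 5.25 CPM of the kept nuclei of that library, whereas the 1977 such barcodes of library 2 held 9 UMIs, 7.59 CPM. It drew attention as a signal outside the nuclei the comparisons used. Hba-a1 was also above the kept nuclei in these barcodes of library 1, at 15.1 against 4.57 CPM (12 and 47 UMIs), while Car1, Car2, Kel and Ank1, at 17.6, 50.4, 1.26 and 2.52 CPM, were below their kept levels of 21.3, 62.6, 7.19 and 8.16 CPM. Hbb-bt, Alas2 and Slc4a1 had 3, 1 and 0 UMIs there. The source of these UMIs was not tested.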

How the results depend on the processing

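The call of 6 members by RNA and 3 by each chromatin sum was recomputed under the alternatives. Clustering on ATAC alone, resolution 0.4, and joining the Sox6-led with the EryP-like nuclei (added after the data were seen) each gave 6 promoters called instead of 3, adding Hbb-bt, Alas2 and Slc4a1. In the last of these the Sox6-led nuclei enter by construction. Requiring at least 500 genes and clustering anew gave an EryP-like cluster of 78 and 80 nuclei, while 200 of the 359 nuclei of the first EryP-like cluster that met the limit fell into a basophil progenitor-like cluster of 309. It gave 3 members by RNA (without Hba-a1, Rhd and Kel), 5 by 50 kb sums and 5 by promoters. With the first clusters kept (added after the data were seen), 264 and 95 EryP-like nuclei met the limit and the same 3 members were called by RNA. The log2 ratios of Kel then stood at 5.54 and 5.72, so its call was lost to the minimum of 20 UMIs per library. The Rhd RNA call was also lost with limits on halved peak counts and with the top 8% of doublet scores removed (5 members each), and the latter added Alas2 by 50 kb sums (4 members). Peaks within 10 kb gave 5 members, and promoters of 2 kb each side 5. The cause was not tested. Leaving the Sox6-led cluster out of the other nuclei, added after the data were seen, gave 4 members by RNA, since Hba-a1 and Rhd then fell under 20 UMIs, and added Slc4a1 by promoters (4 members). RNA alone gave no value, as no cluster met the erythroid naming rule and 588 of 652 EryP-like nuclei fell into a cluster of 926 with 248 basophil progenitor-like nuclei. Of 646 single ratios under an alternative 534 moved by less than their interval, 112 by more, and 0 reversed among called values. No paired analysis was possible because each label group held 1 sample and the libraries belong to no group. Depth limits Hbb-bt, Alas2 and Slc4a1 RNA, with 26, 2 and 22 UMIs in all kept nuclei.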
